A study of Homo sapiens with 45 samples.

Results

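In control HCT116 cells, 3250 of 57494 autosomal bins of 50 kb lay in lamin B1 domains and in H3K27me3 domains but in neither H3K9me2 nor H3K9me3 domains. These lamin B1 bins with H3K27me3 alone cover 162.5 Mb, which is 5.65% of the autosomal bins and 19.0% of the 17078 control lamin B1 bins. They were chosen from the authors' lists of called domains in control cells. Chromosomes 1 to 22 of GRCh38 were divided into bins from position 0, and a bin was kept where at least 50% of it lay in control lamin B1 and in control H3K27me3 domains and less than 50% in each H3K9 list. Control lamin B1, H3K27me3, H3K9me2 and H3K9me3 values of these bins are therefore given as a description. "Alone" refers to the 3 histone marks profiled here.

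The study used the established human colorectal carcinoma line HCT116, treated for 72 hours with 25 nM of nontargeting siRNA or of siRNA against HNRNPK, which encodes an RNA- and single-stranded-DNA-binding protein. Chromatin immunoprecipitation (ChIP) had 3 control and 3 HNRNPK siRNA libraries for lamin B1 (LMNB1), 3 and 3 for H3K9me3, 2 and 2 for H3K27me3, and 3 control libraries for H3K9me2. The values analysed here are called domains, in a single list for each antibody and siRNA. Domain results are therefore unreplicated and untested, and their read depth is unknown. RNA had 4 nontargeting siNTC5 and 4 siHNRNPK libraries, replicates 1 and 2 of each made with a TruSeq stranded mRNA kit and replicates 3 and 4 with a Stranded mRNA Ligation kit. A further 2 nontargeting Scramble libraries were purified with another kit and counted in tables of their own, so they stayed outside the main comparison. Nothing states that replicates came from separate cultures, so p-values measure only the spread between these samples.

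The nuclear lamina is a meshwork of lamins under the inner nuclear membrane, and the chromatin that touches it is mostly gene-poor and silent. Much of that chromatin carries H3K9me2 or H3K9me3. H3K27me3 is the mark of Polycomb repression: Polycomb repressive complex 2 (PRC2) writes it through EZH2 with EED and SUZ12, complexes of the PRC1 family read it through CBX proteins, and it is known from silent developmental genes and from the borders of lamina-associated domains.

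The promoters of 5 genes in these bins are shown here because their RNA is described below: 3 of the 5 most strongly risen and the 2 most strongly fallen genes among those whose average log2 CPM is not under 0 and whose groups do not overlap, as given in RefSeq's promoter table (GRCh38.p14). Each runs 5′ to 3′ from 250 bases before to 50 bases after the start used in that table. Capitals mark the letters CCCTCC or GGGCGG on either strand, so GGAGGG and CCGCCC are marked too. CCCTCC is a run of C with T of the kind that HNRNPK is known to bind in single-stranded nucleic acid, and GGGCGG is the GC box of SP1-type factors.
TBC1D7-LOC100130357: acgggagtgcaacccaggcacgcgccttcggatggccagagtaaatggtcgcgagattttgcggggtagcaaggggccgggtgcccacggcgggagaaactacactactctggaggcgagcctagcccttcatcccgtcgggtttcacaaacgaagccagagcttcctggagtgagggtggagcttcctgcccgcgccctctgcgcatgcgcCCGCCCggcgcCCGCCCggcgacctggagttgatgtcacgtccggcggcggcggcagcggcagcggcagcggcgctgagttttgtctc
GUCY1A2: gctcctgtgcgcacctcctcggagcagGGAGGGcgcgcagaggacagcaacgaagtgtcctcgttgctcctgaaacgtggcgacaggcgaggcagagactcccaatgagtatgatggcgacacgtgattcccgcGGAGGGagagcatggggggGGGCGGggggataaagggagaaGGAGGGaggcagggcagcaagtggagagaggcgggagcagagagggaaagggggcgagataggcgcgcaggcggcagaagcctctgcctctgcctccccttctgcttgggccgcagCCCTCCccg
PEX5L: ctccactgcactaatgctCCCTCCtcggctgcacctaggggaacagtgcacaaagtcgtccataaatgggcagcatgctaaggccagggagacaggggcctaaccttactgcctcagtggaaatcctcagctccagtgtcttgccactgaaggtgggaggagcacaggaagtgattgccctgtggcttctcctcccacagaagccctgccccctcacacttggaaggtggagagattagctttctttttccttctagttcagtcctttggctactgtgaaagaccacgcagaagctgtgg
TTC12: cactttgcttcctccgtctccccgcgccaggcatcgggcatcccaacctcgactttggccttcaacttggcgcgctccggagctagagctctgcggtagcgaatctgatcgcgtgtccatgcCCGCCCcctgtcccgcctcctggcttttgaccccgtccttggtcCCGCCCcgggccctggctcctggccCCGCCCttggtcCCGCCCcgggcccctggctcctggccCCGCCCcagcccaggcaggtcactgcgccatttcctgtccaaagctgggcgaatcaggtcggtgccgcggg
EYA4: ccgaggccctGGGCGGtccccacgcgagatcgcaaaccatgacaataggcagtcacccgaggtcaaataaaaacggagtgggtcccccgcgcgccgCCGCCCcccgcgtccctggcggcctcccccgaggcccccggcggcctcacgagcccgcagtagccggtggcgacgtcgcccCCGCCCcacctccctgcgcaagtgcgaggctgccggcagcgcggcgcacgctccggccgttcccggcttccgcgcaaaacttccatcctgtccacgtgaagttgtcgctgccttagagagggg
They lie at chr6:13328488-13328787, minus strand; at chr11:107018427-107018726, minus strand; at chr3:179974176-179974475, minus strand; at chr11:113314333-113314632, plus strand; and at chr6:133241107-133241406, plus strand. The start of TBC1D7-LOC100130357 is outside the bins and outside both control lamin B1 and control H3K27me3 domains, and the other 4 starts are inside them. The GUCY1A2 promoter holds CCCTCC 4 times, PEX5L holds it 1 time, and the other 3 do not hold it. GGGCGG is present 5 times for TTC12, 3 times for EYA4, 2 times for TBC1D7-LOC100130357 and 1 time for GUCY1A2. CG dinucleotides number 39 for EYA4, 33 for TBC1D7-LOC100130357, 26 for TTC12, 21 for GUCY1A2 and 3 for PEX5L. A match is a description of these letters, and not evidence of binding.

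Over the 394 protein-coding genes of the bins with an entry, the promoter held a median of 9 CG dinucleotides and 52.3% G and C, beside 22 and 63.0% over 15101 autosomal protein-coding promoters of the same length. CCCTCC was present in 43.1% of them and in 50.5% of all, and GGGCGG in 33.8% and 58.9%; the motifs were counted on both strands and separately, also where they share bases. Promoters of genes that passed the RNA filter below had a median of 21.5 CG (92 genes), and those of genes that were counted and did not pass had 5 (290 genes). A start site lay in a knockdown lamin B1 domain for 46 of the 394 genes.

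Coverage by the control lists that the rule used describes the bins and does not test their label. Control lamin B1 domains covered 96.1% of their length and control H3K27me3 domains 98.9%, while H3K9me2 covered 1.83% and H3K9me3 0.234%. No base of H3K9me2 was present in 93.3% of the bins and no base of H3K9me3 in 99.0%. At the lamin B1 limit, the 87 bins with exactly 50% coverage were members and the 89 bins with 40% were not. Knockdown lamin B1 domains later covered 4.25% of the former and 4.16% of the latter. At the H3K9me2 limit, the 71 members with 40% coverage had 29.2% and the 55 bins just outside had 28.7%. At the H3K27me3 limit the 16 members had 16.9% and the 18 bins outside 29.4%, and at the H3K9me3 limit the 6 members had 68.3% and the 7 bins outside 35.7%.

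The 3250 bins formed 731 runs of adjoining bins. The median run was 150 kb, 234 runs were 1 bin long, and 98 runs of at least 10 bins held 1407 bins. The longest was 1550 kb. Of the 1462 sides of these runs, 43.2% met a bin outside lamin B1 that also carried H3K27me3 and 30.4% a lamin B1 bin with H3K9me2 and H3K27me3. Another 9.99% met other chromatin outside lamin B1 and 9.17% a lamin B1 bin with no mark, and 0.479% met a lamin B1 bin with H3K9me2 and H3K9me3. On the 18 chromosomes with at least 20 such bins, they made up 11.6% to 26.9% of the control lamin B1 bins.

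After HNRNPK siRNA, lamin B1 domains covered 16.9% of the length of these bins, and 128.9 Mb of it had left the domain list. Of the 3250 bins, 2554 (78.6%) held no base of a knockdown lamin B1 domain, 427 were wholly inside one, and 269 were partly covered. At least 50% of the length remained covered in 559 bins (17.2%). Lamin B1 bins with H3K9me2 and H3K9me3 kept 98.0% of their length and those with all 3 marks 95.5%. Bins with H3K9me2 and H3K27me3 kept 59.0%. Bins with no mark kept 18.6%, close to the value for H3K27me3 alone. The lists have no replicates, and chromosomes are not replicates of the siRNA.

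**Figure D1:**
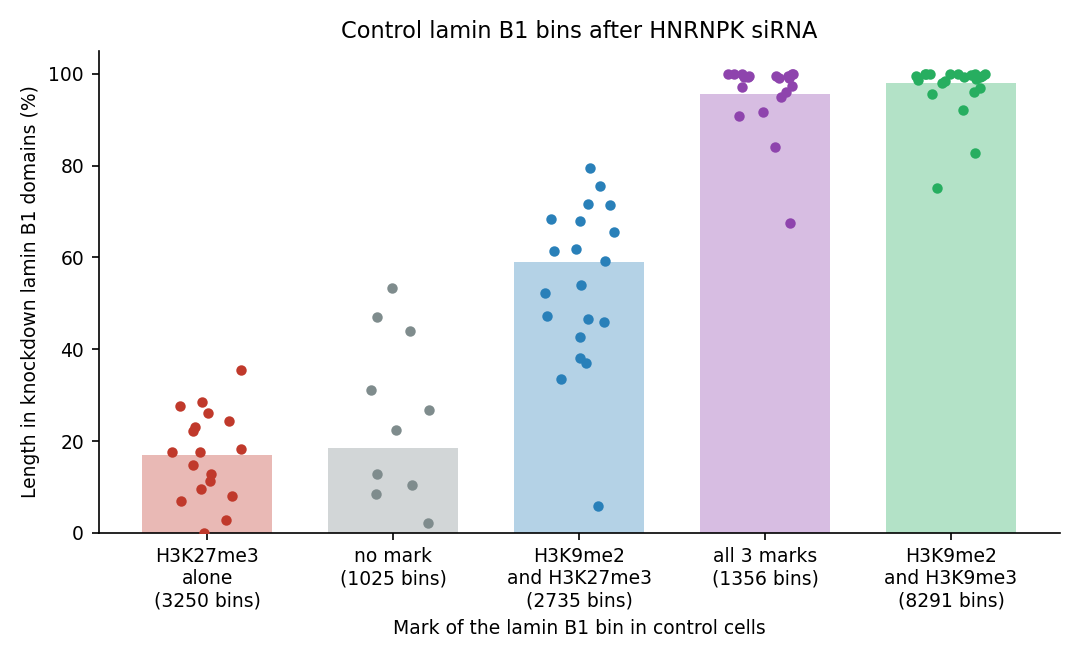
Share of length (%) in knockdown lamin B1 domains for 5 kinds of control lamin B1 bins; bars give all autosomes and points give single chromosomes with at least 20 bins of that kind. Bins with H3K27me3 alone (16.9%) and with no mark (18.6%) are low, bins with H3K9me2 and H3K27me3 are in between (59.0%), and bins with H3K9me3 beside H3K9me2 are near the top.

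On the 18 chromosomes with at least 20 bins, the kept share ran from 0% on chromosome 16 to 35.6% on chromosome 4, with a median of 17.5%. Chromosome 11, with 256 bins, kept 2.77%, and chromosome 3, with 242 bins, kept 6.98%. The share was below that of H3K9me2 and H3K27me3 bins on 17 of the 17 chromosomes with at least 20 bins of both kinds. It was below that of H3K9me2 and H3K9me3 bins on 18 of 18. Against bins with no mark it was lower on 6 of 10, so the order of these 2 kinds varied between chromosomes.

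Position within the control lamin B1 domain moved with the kept share. In the outermost bin of a domain 9.22% of the length was kept (778 bins), in the third bin inwards 15.0% (455 bins), and more than 10 bins from the edge 35% (175 bins). The same order held in bins with H3K9me2 and H3K27me3, from 26.4% to 80.4%, and in bins with no mark, from 8.57% to 37.7%. At every distance the bins with H3K27me3 alone were below those with H3K9me2 and H3K27me3.

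The authors' score of the control lamin B1 domain also moved with it. Its median was 0.823 over the bins with H3K27me3 alone, 1.19 over the 559 that kept lamin B1 and 0.761 over the rest, beside 1.39 for H3K9me2 and H3K27me3 bins and 0.531 for bins with no mark. In domains scored under 0.5 the bins with H3K27me3 alone kept 8.95% and in those scored over 1.5 they kept 33.0%, but the rise was not steady: the groups between kept 5.37%, 22.1%, 17.9% and 24.7%. Bins with H3K9me2 and H3K27me3 went from 11.6% to 79.5% over the same scores, while bins with no mark reached 42.0% in a middle score group and 25.6% over 1.5. In the lowest score group the difference between these kinds was thus 8.95% against 11.6%, and in the highest 33.0% against 79.5%. By score and position, bins in domains scored under 1 and 1 or 2 bins from the edge kept 7.87% (868 bins), and bins in domains scored 1 or more and over 5 bins inside kept 34.0% (426 bins).

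**Figure D2:**
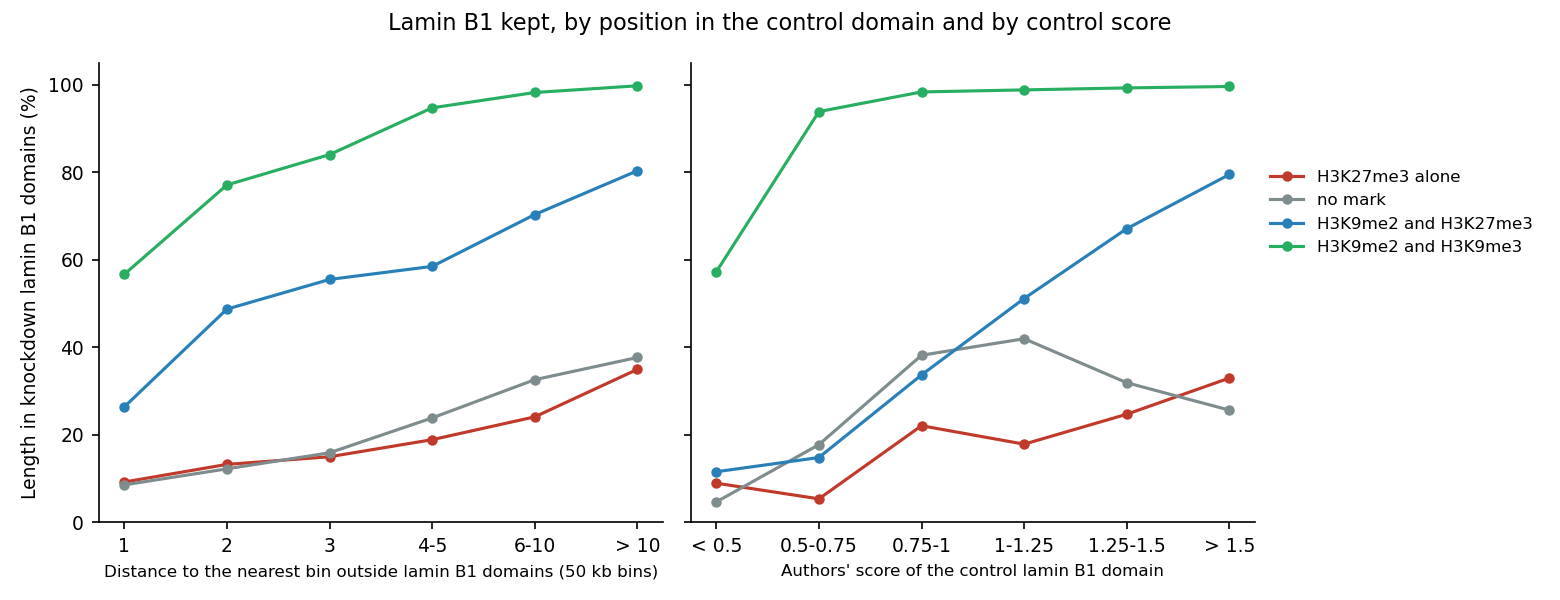
Share of length (%) in knockdown lamin B1 domains against distance from the control domain edge in bins of 50 kb (left) and against the authors' control domain score (right), for 4 kinds of lamin B1 bins in groups of at least 20 bins. For H3K27me3 alone the share goes from 9.22% at the edge to 35% deep inside, and from 8.95% at the lowest scores to 33.0% at the highest.

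The lists differ in how low their scores reach, which touches these values. The lowest control lamin B1 score was 0.267 and the lowest knockdown score 0.477, and 689 of the 3250 bins (21.2%) lay in control domains under the knockdown minimum. With both lists held to the higher minimum, 2561 bins remained and 18.7% of their length was kept, beside 61.5% for H3K9me2 and H3K27me3 bins and 27.7% for bins with no mark. In a bulk culture, fewer cells with lamin B1 contact and weaker contact per cell cannot be told apart.

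Runs with lamin B1 chromatin of another kind beside them kept more. Runs with lamin B1 bins on both sides (101 runs, 269 bins) kept 35%, those with it on 1 side (482 runs, 1655 bins) 19.5%, and those with it on neither side (148 runs, 1326 bins) 9.91%. Next to a bin with an H3K9 mark, 26.9% of the length was kept (543 bins), and at 21 to 40 bins from one 5.13% (398 bins). Farther away the share was 11.2% (671 bins), so it did not fall steadily. Single-bin runs kept 22.7% and runs of over 10 bins 16.1%. In all, 528 runs had every bin under 50% covered, 87 had every bin at least 50% covered and 116 were mixed.

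The 3 longest runs that lost lamin B1 carried known loci. Levels are in CPM, the count divided by the library's TMM-scaled total, and the RNA filter is the low-count filter of edgeR, which asks for about 0.665 CPM in at least 4 libraries. At chr3:168200001-169750000 (1550 kb), 0% was in knockdown lamin B1 domains and 100% in knockdown H3K27me3 domains. This run holds MECOM, a zinc finger transcription factor gene. MECOM was measured at 3.44, 2.96, 2.80 and 3.06 CPM in the siNTC5 libraries and 4.81, 5.12, 5.81 and 4.69 CPM in the siHNRNPK libraries, without overlap, and rose by a log2 fold change of 0.73 ± 0.16 (SE; edgeR adjusted p = 3.46e-04). At chr3:28500001-29900000 (1400 kb), also 0% and 100%, lie RBMS3, for an RNA-binding protein, which did not pass the RNA filter, and the end of ZCWPW2, with 14.8% of its body in the run. ZCWPW2 was at 1.95, 1.46, 1.60 and 1.75 CPM in the siNTC5 libraries and 0.132, 0.593, 0.674 and 0.494 CPM in the siHNRNPK libraries, and fell by 1.86 on the log2 scale (edgeR adjusted p = 9.81e-05). At chr11:106200001-107250000 (1050 kb) lies GUCY1A2, described below.

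The longest runs that kept lamin B1 were shorter. Knockdown lamin B1 domains covered 96.7% of chr6:155950001-156550000 (600 kb), which holds no protein-coding gene by RefSeq. They covered 100% of chr1:245200001-245750000 (550 kb), which holds most of KIF26B, a kinesin gene. KIF26B did not pass the RNA filter. SMYD3, a methyltransferase gene of which 0.0863% lies in the last run, went from 24.1 ± 0.801 to 18.2 ± 1.01 CPM (SD, n = 4 and 4), and fell by 0.40 on the log2 scale (edgeR adjusted p = 1.57e-04).

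H3K27me3 stayed in place where lamin B1 left. Knockdown H3K27me3 domains covered 98.9% of the bins' length, as in control cells, and 3240 of 3250 bins remained at least 50% covered. The share was 98.9% over the 2691 bins that lost lamin B1 and 98.7% over the 559 that kept it. On the 18 chromosomes with at least 20 bins, the lowest share was 95.8%. Outside lamin B1, 8142 control H3K27me3 bins went from 94.9% to 86.8%, and bins with H3K9me2 and H3K27me3 kept 99.9%.

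H3K9me3 appeared in few of these bins. Its domains covered 0.234% of the length in control cells, a value that the rule kept low, and 5.05% after HNRNPK siRNA, with 168 bins at least 50% covered. The share was 9.68% in bins that kept lamin B1 and 4.09% in bins that lost it. Over the same lists, control H3K27me3 bins outside lamin B1 went from 3.84% to 11.4% and bins with H3K9me2 and H3K27me3 from 1.51% to 9.78%. The knockdown list has 1996 H3K9me3 domains and the control list 895. With both held to the same lowest score the share in the bins with H3K27me3 alone was 4.65%. H3K9me2 had no knockdown libraries, so its fate in these bins is not analysed here.

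By RefSeq, 2323 genes have 50% or more of the gene body in these bins, or 14.3 genes per Mb. Protein-coding genes number 486 (2.99 per Mb), lncRNA genes 1009, pseudogenes 698 and miRNA genes 50. Lamin B1 bins with H3K9me2 and H3K9me3 hold 1.64 protein-coding genes per Mb and H3K27me3 bins outside lamin B1 hold 7.09. Olfactory receptor genes, which are used in the nose, are the most numerous family of those listed. Of 389 on the autosomes 95 (24.4%) lie in these bins, beside 2.54% of all protein-coding genes, and none of them passed the RNA filter. Another 109 (28.0%) lie in lamin B1 bins with H3K9me2 and H3K9me3 and 77 (19.8%) in H3K27me3 bins outside lamin B1. Homeobox and paired-box factors, classic Polycomb targets, number 5 of 153 (BARHL2, DLX5, DLX6, POU3F2 and POU4F1), while 63 lie in H3K27me3 bins outside lamin B1. Zinc finger genes of the ZNF series number 2 of 505, and 169 lie in bins with H3K9me2 and H3K9me3.

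HNRNPK itself checks the labels. It was measured at 934, 967, 821 and 813 CPM in the siNTC5 libraries and 250.0, 222, 157 and 164 CPM in the siHNRNPK libraries. The siHNRNPK values were all lower, at 22.4% of the control mean. The log2 fold change was -2.17 ± 0.06 (SE; edgeR adjusted p = 7.29e-15), and a two-sided exact permutation test of 4 against 4 libraries gave its lowest possible p, 0.0286. Total counts ran from 14810376 to 23633851 in siNTC5 and from 12107280 to 15255556 in siHNRNPK libraries, so 1 count was worth 0.0417 to 0.0842 CPM. Of the epithelial marker genes 9 of 10 passed the filter, with a summed level of 2969 to 3461 CPM with siNTC5 and 4686 to 5800 CPM with siHNRNPK. Of these 9, 6 rose and 3 fell, where 35.5% and 36.1% of all genes tested did. Of other cell types, fibroblast markers summed to 43.6 to 72.5 and 75 to 122 CPM, with 1 of 6 markers at 1 CPM or more in any library and LUM at 0, leukocyte markers to at most 2.17 CPM with CD3E at 0, and endothelial markers to at most 3.69 CPM. The part of these marker levels in the results below was not tested.

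Few genes of the bins were expressed enough to test. Of the 824 names counted, 383 (46.5%) had no count in any of the 8 libraries, beside 23.7% of all 28278 names. The filter on low counts was passed by 135 (16.4%), beside 49.3% of all names. The summed level of the 824 genes was 1354, 1360, 1338 and 1347 CPM with siNTC5 and 1518, 1508, 1525 and 1508 CPM with siHNRNPK. In every siHNRNPK library it was above every siNTC5 library. The number of these genes at 1 CPM or more was 100, 101, 100 and 103 with siNTC5 and 119, 122, 127 and 118 with siHNRNPK. Over all 28278 names the number also rose, from 12882 to 12951 up to 13247 to 13369.

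**Figure D3:**
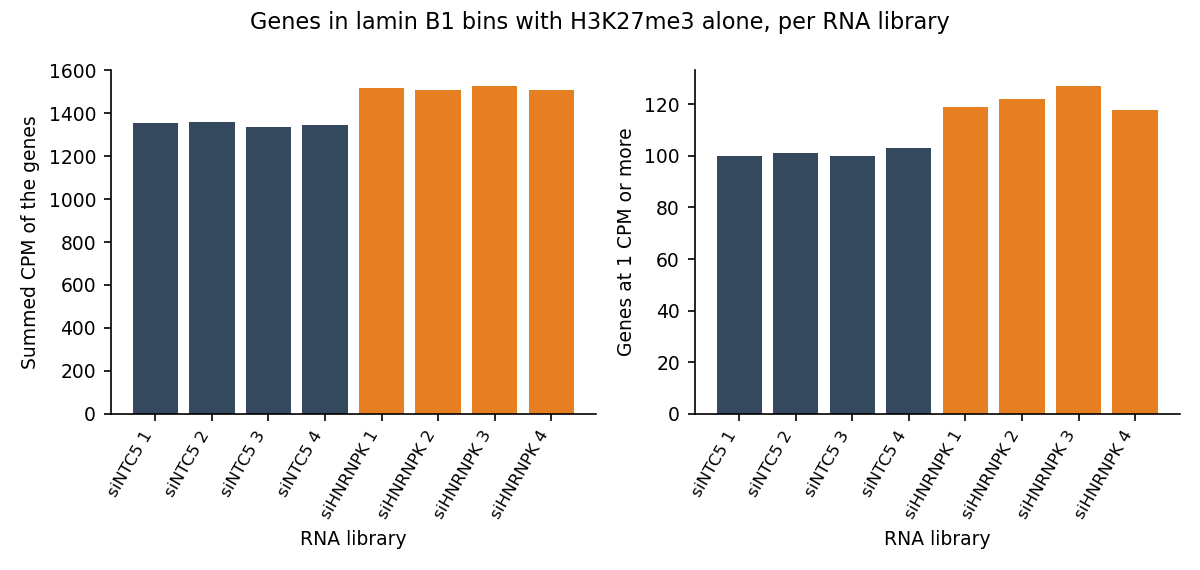
Summed CPM (left) and number of genes at 1 CPM or more (right) for the 824 counted genes of the bins, 1 bar per RNA library, siNTC5 dark and siHNRNPK orange. All 4 siHNRNPK libraries stand above all 4 siNTC5 libraries in both panels.

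Among the 135 genes tested, 60 rose and 30 fell at an edgeR adjusted p under 0.05, and 45 were not called. Over all 13933 genes tested 35.5% rose and 36.1% fell (71.5% in both directions), and the shares in the bins were 44.4% and 22.2%. The share that rose was not larger in the bins where the filter was passed in every library. Of the 99 genes above the filter's 0.665 CPM in all 8 libraries, 34 rose (34.3%) and 26 fell (26.3%), beside 34.6% and 37.9% of the 12561 such genes among all tested. The median log2 fold change was 0.30 over the 135 genes and 0.10 over the 99, beside -0.004 and -0.02 over all such genes. At a log2 fold change of 1 or more in size, 33 rose (24.4%) and 12 fell (8.89%), beside 7.47% and 8.28% of all genes tested. The 8 libraries separated completely upwards for 58 of the 135 genes and downwards for 26, beside 28.4% and 28.1% of all genes tested.

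**Figure D4:**
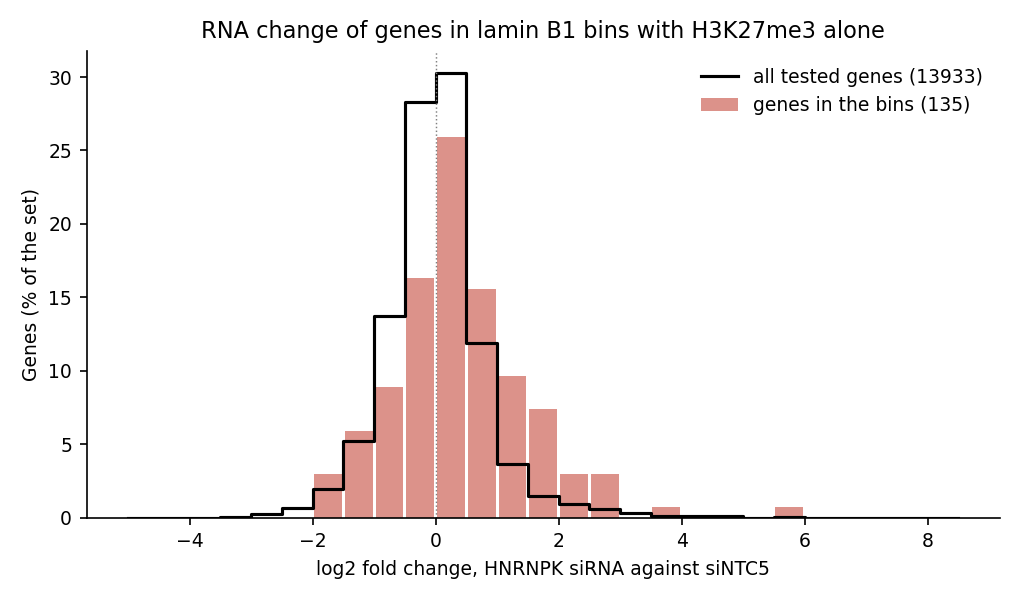
Distribution of log2 fold changes (siHNRNPK against siNTC5) in steps of 0.5 for the 135 tested genes of the bins (bars) and all 13933 tested genes (line), each as a percentage of its set. The bars are above the line in each step from 0.5 to 3 and in both steps from -2 to -1, below it between -1 and 0.5, and at 0% in most steps beyond these.

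Level and filter bear on these counts. Beside the 99 genes above it in all 8 libraries, 25 reached the filter's level in every siHNRNPK but not in every siNTC5 library. Of these 25, 24 rose. Another 6 reached it in every siNTC5 but not in every siHNRNPK library, and 4 of them fell. The filter favours such genes where they are high in the group that passed, so their calls are no test of direction. Among genes with an average log2 CPM under 2, 36 of 73 rose (49.3%) and 11 fell, beside 35.5% and 20.0% of all such autosomal genes. At 2 or more, 24 of 62 rose (38.7%) and 19 fell (30.6%), beside 35.5% and 40.3%.

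Library kits were balanced over the groups. The change differed between kits for 1 of the 135 genes by the edgeR interaction test (ARRDC4), beside 0.129% of all genes tested. At an unadjusted p under 0.05 there were 12 (8.89%), beside 11.8% of all genes tested.

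The split by lamin B1 had few genes on the kept side. Of 125 tested genes with less than 50% of their body in knockdown lamin B1 domains, 54 rose and 29 fell. Of the 10 with at least 50%, 6 rose and 1 fell, and the difference between these sets was not tested. In bins with H3K9me2 and H3K27me3 22 of 32 rose and 1 fell, and in bins with H3K9me2 and H3K9me3 64 of 102 rose and 6 fell. In bins with no mark, which kept 18.6% of their lamin B1 length, 22 of 86 rose and 31 fell. In H3K27me3 bins outside lamin B1 485 of 1228 rose and 342 fell. None of these differences between kinds of bins was tested, and 35.5% of all genes tested rose and 36.1% fell. The sets also differed in level, with a median average log2 CPM of 1.85 for the 125 genes and 0.47 for the 10. It was 0.67 with H3K9me2 and H3K27me3, 2.83 with H3K9me2 and H3K9me3 and 4.22 with no mark. In H3K27me3 bins outside lamin B1 it was 2.80.

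The bodies of 122 of the 135 genes lay themselves at least 50% in control lamin B1 and H3K27me3 domains, and 56 of these rose and 24 fell. Of 9 genes with less than 50% of the body in control lamin B1 domains, 3 rose and 4 fell. Over all 13933 genes tested 35.5% rose and 36.1% fell, and the difference between these sets was not tested. Among the 9 genes are ARF5 and CYP4V2, whose bodies lay wholly outside control lamin B1 domains although their bins were at least 50% covered.

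Of the 9 risen genes described here, 1 (PEX5L) was above the filter's 0.665 CPM in all 8 libraries. The other 8 reached it in every siHNRNPK library but not in every siNTC5 library, and KCNQ3, TBC1D7-LOC100130357 and CCR6 in no siNTC5 library. They entered the test through the group in which they are high, and groups without overlap were a condition for naming them.

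GUCY1A2 (chr11:106674019-107018476), a subunit of soluble guanylate cyclase and the only protein-coding gene of its 1050 kb run, was at 0.948, 0.459, 0.399 and 0.273 CPM in the siNTC5 libraries and 2.76, 2.89, 3.87 and 3.37 CPM in the siHNRNPK libraries. The groups did not overlap, and the log2 fold change was 2.62 ± 0.30 (SE; edgeR adjusted p = 3.12e-07). All of its body lay in control lamin B1 domains and none in knockdown lamin B1 domains, and H3K27me3 covered 100% in both.

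PEX5L (chr3:179794958-180036937), which encodes an auxiliary subunit of neuronal HCN channels, was at 2.13, 2.17, 2.26 and 1.91 CPM in the siNTC5 libraries and 10.5, 12.5, 12.9 and 12.6 CPM in the siHNRNPK libraries. It rose from 2.12 ± 0.148 to 12.1 ± 1.11 CPM (SD, n = 4 and 4), a log2 fold change of 2.51 ± 0.14 (SE; edgeR adjusted p = 1.30e-11), and was above the filter in all 8 libraries. No part of its body remained in lamin B1 domains, while 95.8% was in knockdown H3K27me3 domains.

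MAST4 (chr5:66596393-67169593), a microtubule-associated kinase gene, was at 0.474, 1.001, 0.666 and 0.984 CPM in the siNTC5 libraries and 4.02, 4.38, 4.799 and 4.44 CPM in the siHNRNPK libraries, and its log2 fold change was 2.44 ± 0.23 (SE; edgeR adjusted p = 1.94e-08). It kept 10.2% of its body in lamin B1 domains, and its start in the promoter table lay in a knockdown lamin B1 domain. CCR6 (chr6:167111795-167139141), the receptor of the chemokine CCL20, was at 0.118, 0.459, 0.1997 and 0.492 CPM in the siNTC5 libraries and 1.71, 1.63, 1.85 and 1.73 CPM in the siHNRNPK libraries, and its log2 fold change was 2.34 ± 0.35 (SE; edgeR adjusted p = 7.72e-06). It stayed wholly inside lamin B1 domains. Both of its groups were low, but they did not overlap.

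The other 5 risen genes had log2 fold changes between 1.84 and 2.76. KCNQ3, a potassium channel subunit of neurons, ranged over 0.209 to 0.601 CPM with siNTC5 and 2.10 to 3.03 CPM with siHNRNPK. NELL2, for a secreted glycoprotein, ranged over 0.266 to 0.876 CPM with siNTC5 and 1.68 to 2.60 CPM with siHNRNPK. SPOCK1, for a proteoglycan of the extracellular matrix, ranged over 0.399 to 0.766 CPM with siNTC5 and 1.91 to 2.86 CPM with siHNRNPK. None of these pairs of ranges overlapped. NLRP5, an oocyte gene, was at 0.296, 0.209, 1.06 and 0.875 CPM in the siNTC5 libraries and 1.51, 1.71, 2.86 and 2.14 CPM in the siHNRNPK libraries. TBC1D7-LOC100130357 ranged over 0.0834 to 0.532 CPM with siNTC5 and 1.65 to 2.30 CPM with siHNRNPK; it is a readthrough model that shares exons with TBC1D7, its body lay only 29.8% in H3K27me3 domains, and the split of its counts is uncertain.

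Relatives of NLRP5 were looked at after their values were seen, so their calls are only a description. Of all genes tested, 35.5% rose and 36.1% fell. Of 4 tested NLRP genes in the bins, NLRP4 and NLRP14 rose as well, with log2 fold changes of 1.31 ± 0.19 (SE; edgeR adjusted p = 7.14e-06) and 1.81 ± 0.22 (SE; edgeR adjusted p = 6.56e-07), while NLRP11 fell by 0.71 (edgeR adjusted p = 0.011). Reads of such related genes can be split between them by the counting.

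In the 2 Scramble libraries, scaled together with the other 8 on shared names, all 9 risen genes described here were below every siHNRNPK library. PEX5L was at 0.588 and 0.553 CPM there, under its siNTC5 level, and GUCY1A2 at 0.274 and 0.128 CPM.

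The fallen genes described here were of mixed function and mostly at higher counts. ARF5 (chr7:127588411-127591700), a small GTPase of Golgi transport, was at 141, 138, 145 and 136 CPM in the siNTC5 libraries and 49.4, 47.2, 47.5 and 45.2 CPM in the siHNRNPK libraries. It fell from 140.1 ± 4.22 to 47.3 ± 1.71 CPM (SD, n = 4 and 4), a log2 fold change of -1.56 ± 0.05 (SE; edgeR adjusted p = 1.11e-14). Its body carried H3K27me3 domains over 100% but no lamin B1 domain in either list.

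TTC12 (chr11:113314583-113373297), needed for dynein arm assembly in cilia, was at 9.77, 10.1, 8.32 and 9.57 CPM in the siNTC5 libraries and 3.62, 3.41, 1.94 and 1.65 CPM in the siHNRNPK libraries, and its log2 fold change was -1.82 ± 0.16 (SE; edgeR adjusted p = 1.00e-08). It lost all lamin B1 coverage, from 100% to 0%, and H3K27me3 covered 40.4% of it in both lists. EYA4 (chr6:133240593-133532128), a developmental coactivator and phosphatase, was at 0.8294, 1.21, 1.40 and 1.86 CPM in the siNTC5 libraries and 0.329, 0.371, 0.253 and 0.658 CPM in the siHNRNPK libraries, and its log2 fold change was -1.70 ± 0.35 (SE; edgeR adjusted p = 2.72e-04). EYA4 reached the filter's level in every siNTC5 but in no siHNRNPK library, so it entered the test through the group in which it is high. In the Scramble libraries EYA4 was at 0.451 and 0.531 CPM, within the range of the siHNRNPK libraries. With Scramble as added controls its log2 fold change was -1.42 (edgeR adjusted p = 0.0175). Its body overlaps the lncRNA gene TARID, and whether strand was used in counting is not given in the sources used here.

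NREP (chr5:111728802-111976932), a neuronal regeneration-related gene, was at 12.8, 12.9, 14.5 and 14.4 CPM in the siNTC5 libraries and 5.46, 5.12, 6.23 and 5.02 CPM in the siHNRNPK libraries, and its log2 fold change was -1.32 ± 0.11 (SE; edgeR adjusted p = 3.32e-09). STARD4-AS1 (chr5:111512226-111739726), an lncRNA gene that overlaps one end of NREP, was at 3.85, 3.46, 3.33 and 4.48 CPM in the siNTC5 libraries and 2.04, 2.08, 1.43 and 1.56 CPM in the siHNRNPK libraries, and its log2 fold change was -1.07 ± 0.20 (SE; edgeR adjusted p = 9.48e-05). Its Scramble values, 0.568 and 0.893 CPM, were below every siHNRNPK library, and with Scramble as added controls its edgeR adjusted p was 0.4. NREP in the Scramble libraries, at 11.1 and 12.6 CPM, was above every siHNRNPK library.

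The other 5 fallen genes had log2 fold changes between -1.56 and -1.05. CYP4V2, a fatty acid hydroxylase that overlaps KLKB1, ranged over 6.22 to 7.72 CPM with siNTC5 and 1.43 to 3.23 CPM with siHNRNPK. LIN7A, a scaffold protein of cell polarity, ranged over 7.80 to 9.78 CPM with siNTC5 and 2.47 to 3.69 CPM with siHNRNPK. NMNAT3, an enzyme of mitochondrial NAD synthesis, ranged over 3.67 to 6.12 CPM with siNTC5 and 1.48 to 2.88 CPM with siHNRNPK, and knockdown H3K27me3 domains covered 28.0% of its body after 100% in control cells. BMP6, a ligand of the bone morphogenetic protein family, ranged over 3.67 to 5.39 CPM with siNTC5 and 2.04 to 2.53 CPM with siHNRNPK, and overlaps TXNDC5. LINC00326, an lncRNA, ranged over 2.46 to 3.66 CPM with siNTC5 and 0.856 to 2.36 CPM with siHNRNPK. Of its body 64.4% lay in the bins and 35.6% in control H3K9me3 domains. All 5 were separate between the groups, and in both Scramble libraries all 5 were above every siHNRNPK library.

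**Figure D5:**
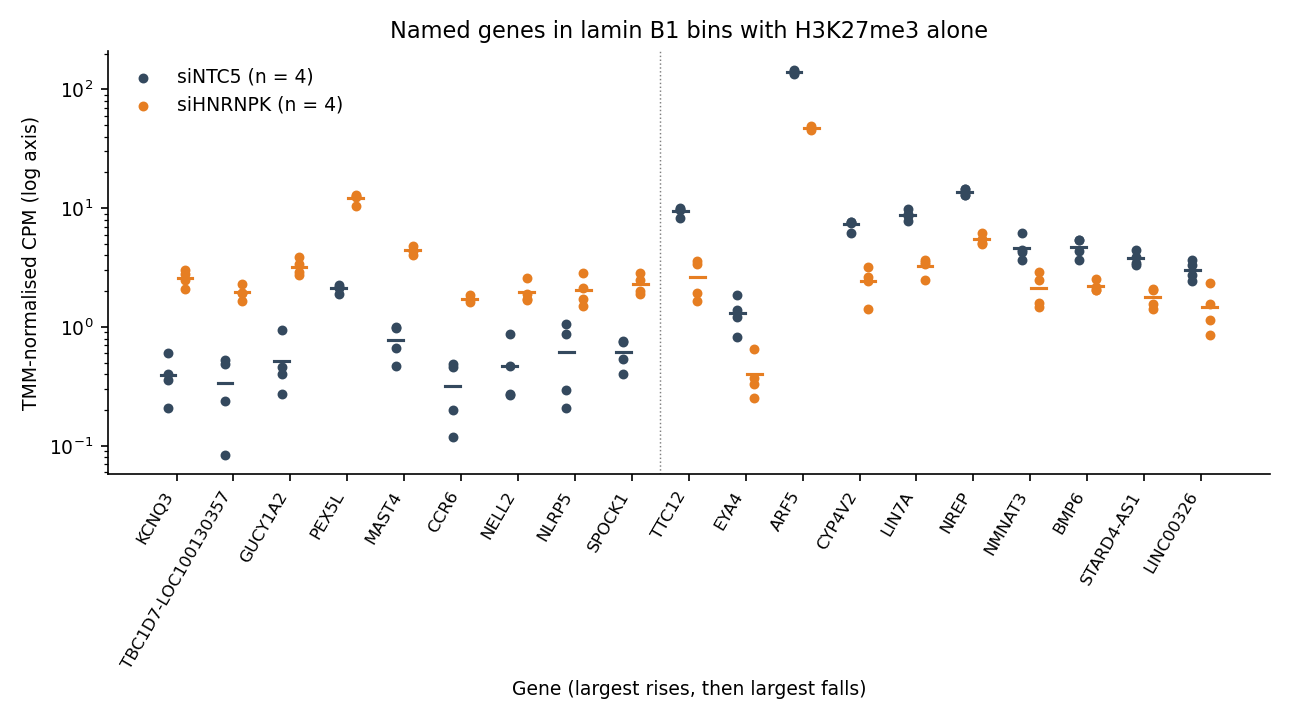
TMM-normalised CPM (log axis) in each RNA library for 9 of the 10 largest rises (left of the dotted line) and the 10 largest falls (right). These were ranked among called genes of the bins with separate groups and an average log2 CPM of at least 0. Libraries of siNTC5 are dark and those of siHNRNPK orange, each point is 1 library and short lines are means of 4. The groups are separate for all 19 genes, as the rule for naming them required.

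Of the developmental and neuronal families in the bins, few members were expressed enough to test, and 71.5% of all genes tested were called, so the counts of calls below are not set apart from that background. Of 10 SOX, FOX, GATA, TBX and bHLH genes 2 passed the filter, and EBF3, a transcription factor of neuronal development, rose by 1.63 ± 0.28 (SE; edgeR adjusted p = 3.65e-05) on the log2 scale while TBX18 was not called. Of 9 potassium, sodium and calcium channel genes 4 were tested: KCND3, KCNK9 and KCNQ3 rose and KCNS3 fell. Of 9 neurotransmitter receptor genes 3 were tested, and the glutamate receptor genes GRIN3A (1.16 to 3.24 CPM on average) and GRM3 (0.436 to 1.09 CPM) rose. The siNTC5 mean of GRM3 was under the filter's 0.665 CPM and its siHNRNPK mean above it, so the filter favoured a rise in this gene. Of 13 solute carrier genes 5 were tested, 2 rose and 1 fell.

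The core subunits of the H3K27me3 writer were not called. EZH2 was at 98.0, 122, 96.1 and 95.03 CPM in the siNTC5 libraries and 109.9, 109.6, 95.05 and 102 CPM in the siHNRNPK libraries, a log2 difference of 0.02 ± 0.06 (SE; edgeR adjusted p = 0.778). EED and SUZ12 differed by 0.001 ± 0.07 (SE; edgeR adjusted p = 0.99) and -0.01 ± 0.05 (SE; edgeR adjusted p = 0.909). Of 12 tested PRC2 genes 3 rose and 5 fell, and of 19 tested PRC1 genes 8 rose and 7 fell, while 35.5% and 36.1% of all genes tested did so. The 2 whose log2 fold change was 1 or more in size were readers or partners of PRC1. CBX7, which binds H3K27me3, was at 18.8, 20.4, 20.0 and 19.0 CPM in the siNTC5 libraries and 9.48, 9.57, 8.76 and 11.3 CPM in the siHNRNPK libraries, and its log2 fold change was -1.004 ± 0.10 (SE; edgeR adjusted p = 2.40e-08). SCMH1 was at 32.4, 36.7, 30.9 and 33.8 CPM in the siNTC5 libraries and 16.3, 17.2, 12.5 and 13.1 CPM in the siHNRNPK libraries, and its log2 fold change was -1.18 ± 0.09 (SE; edgeR adjusted p = 5.51e-10). Of the H3K27 demethylases, KDM6A rose by 0.65 ± 0.07 (SE; edgeR adjusted p = 7.09e-08) and KDM6B was not called.

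Of 19 tested genes of the lamina list 13 fell and 5 rose, where 36.1% and 35.5% of all genes tested did. LMNB1, the target of the ChIP, was at 169, 191, 166 and 171 CPM in the siNTC5 libraries and 145, 146, 128 and 134 CPM in the siHNRNPK libraries, and fell from 174 ± 11.4 to 139 ± 8.94 CPM (SD, n = 4 and 4), a log2 fold change of -0.33 ± 0.05 (SE; edgeR adjusted p = 4.23e-06). With Scramble as added controls LMNB1 was not called, at -0.24 (edgeR adjusted p = 0.058). LMNB2 fell by 0.68 and LMNA by 0.80 on the log2 scale, with edgeR adjusted p = 8.25e-09 and 6.48e-10, and neither overlapped between the groups. LBR, a lamin B receptor, was at 193, 199, 153 and 161 CPM in the siNTC5 libraries and 169, 174, 135 and 142 CPM in the siHNRNPK libraries; its groups overlapped, and the test, which takes the kit into account, gave -0.19 ± 0.04 (SE; edgeR adjusted p = 6.01e-04). Without the kit term LBR was not called (edgeR adjusted p = 0.139). The part of these RNA changes in the lamin B1 domains that left the list was not tested.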

How the data were processed

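Domain lists and gene counts of HCT116 cells were analysed as deposited. Each domain carries the authors' score. How the score was computed, which caller was used and whether replicates were pooled are not given in the sources used here. ChIP reads were handled with bcl2fastq 2.20, fastp 0.23.2, Bowtie2 2.5.1, deepTools 3.1.3 and hg38, per the submitters' processing notes. Counts per gene were made by the authors with STAR 2.7.1a and featureCounts (Subread 2.0.6) on hg38, per the same notes. For the Scramble counts the notes name both hg19 and hg38, and which was used is not stated. Whether strand was used is not given in the sources used here.

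Domain edges fall on steps of 5 kb, and coverage was computed on these steps in bins of 50 kb. Genes belong to a bin class by 50% of the body, with positions from RefSeq (GRCh38.p14); 27616 of 28278 names (97.7%) matched. Counts were filtered with filterByExpr, TMM-scaled and compared in edgeR 4.0.16 by its quasi-likelihood test (limma 3.58.1, R 4.3.3) with library kit and treatment as terms, Benjamini-Hochberg adjustment over 13933 genes and a threshold of 0.05. Bins were handled in Python 3.11.15 (numpy 2.4.6, pandas 2.3.3), and figures drawn with matplotlib 3.10.9.

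Named genes are the 10 largest rises and 10 largest falls among genes of the bins with adjusted p under 0.05, complete separation of the groups and an average log2 CPM of at least 0, plus HNRNPK, core Polycomb and lamina genes and the 3 longest lost and kept runs with their genes; 1 of the risen genes and 1 of the kept runs are not reported here. The bins and lists were chosen with earlier results of these data known. Same-numbered libraries deviated together (r across genes 0.1004, 0.4246, 0.3365 and 0.2653 for replicates 1 to 4) and share a kit. With the kit effect removed r was -0.191, -0.156, -0.281 and -0.252. Removing kit and treatment by a fit itself makes such remainders negatively related, so these values do not decide whether the libraries were paired. Alternatives were other bins, limits, filters, scalings, DESeq2 1.42.0, each kit, added Scramble controls and each library left out. Tested on simulated data for siHNRNPK against siNTC5 (13455 genes), 194 of 200 changed genes and 15 unchanged genes were called. All 200 were changed by the same large size, whereas 71.5% of genes were called in the real data. The simulation therefore does not measure how accurate those calls are.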

Additional observations from a re-analysis of the deposited data

Results flagged for a closer look

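In groups of 4 libraries, a value was singled out where its gap to the nearest library exceeded Dixon's limit at 95% for the group's range, which chance does for about 1 in 20 groups; 4 of the 64 groups examined were. PEX5L was at 10.5 CPM in siHNRNPK replicate 1, beside 12.5 CPM in the nearest library. CYP4V2 was at 6.22 CPM in siNTC5 replicate 1, beside 7.51 CPM. EZH2 was at 122 CPM in siNTC5 replicate 2, beside 98.0 CPM, and LMNB1 at 191 CPM in the same library, beside 170.5 CPM.

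The change of ARRDC4, an arrestin-domain gene, differed between the library kits. It was at 24.1, 22.2, 38.9 and 40.5 CPM in the siNTC5 libraries and 33.0, 34.0, 35.7 and 34.5 CPM in the siHNRNPK libraries. The treatment by kit term was -0.72 ± 0.13 (SE; edgeR adjusted p = 0.0223), the only one of the 135 genes of the bins called, beside 0.129% of all genes tested.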

How the results depend on the processing

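Bins of 25 and 100 kb gave 6495 and 1654 bins, with 99.4% and 97.6% of their length in knockdown H3K27me3 domains. Coverage limits of 25% and 75% gave a kept lamin B1 share of 15.3% and 18.9% and an H3K27me3 share of 97.9% and 99.7%. With no base of an H3K9 mark allowed, lamin B1 was 15.6% and H3K9me3 4.33%. With domains of at least 100 kb H3K9me3 was 3.50%. The upper 75% of scores gave 18.8% for lamin B1, 98.4% for H3K27me3 and 4.22% for H3K9me3. Holding the lists to 1 lowest score gave 18.7% for lamin B1, and interior bins gave 19.3%. Every one of these kept shares of lamin B1 was under 20%.

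With a mean of at least 50 counts, 29 of 68 genes in the bins rose and 20 fell. Of all 11442 genes in that fit 4330 rose and 4359 fell. With no filter beyond 1 count, 96 of 441 (21.8%) rose and 36 fell, while 5325 of all 21564 rose and 5540 fell. At a log2 fold change of 1 or more in size, 33 of 135 rose and 12 fell, beside 7.47% and 8.28% of all genes tested. Assigned by any overlap, 107 of 273 rose and 72 fell, and by the whole body 34 of 60 rose and 9 fell. In the same fit 35.5% of all genes tested rose and 36.1% fell. Leaving out 1 library at a time gave 59 to 64 that rose and 27 to 31 that fell, of 137 to 143 tested. Of all 14027 to 14214 genes in these fits, 4699 to 4967 rose and 4836 to 5030 fell. TruSeq libraries alone gave 56 and 23 of 140, beside 4044 and 4142 of all 14171 genes. Ligation libraries alone gave 57 and 27 of 137, beside 4727 and 4802 of all 13999 genes. Scramble as added controls gave 43 and 21 of 130, beside 3337 and 3628 of all 13460 genes. Assignment by the gene body itself, chosen after the data were seen, gave 56 and 24 of 122 tested. The replicate block in place of kit gave 62 and 30 of 135, beside 4872 and 5000 of all 13933 genes. It changed no other call by more than 1.5 times. Of the 52 tested Polycomb and lamina genes 11 rose and 16 fell with Scramble as added controls, beside 3337 and 3628 of all 13460 genes. At a log2 fold change of 1 or more in size 0 rose and 2 fell, beside 7.47% and 8.28% of all genes tested. The count of genes in the bins with a kit interaction was 3 with no filter, and 0 to 2 with 1 library left out: 2 without siNTC5 replicate 1 or 2 and 0 without any other.

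EZH2, EED and SUZ12 stayed uncalled in each alternative, with differences of either sign. On the log2 scale EZH2 was 0.33 with Scramble added, -0.017 with no filter and -0.042 to 0.093 with 1 library left out. EED was 0.10 with Scramble added, -0.031 in TruSeq libraries, -0.036 with no filter and -0.026 to 0.031 with 1 left out. SUZ12 was 0.071 with Scramble added, 0.023 in TruSeq libraries, 0.024 with a mean of at least 50 counts, 0.028 with upper-quartile scaling and -0.031 to 0.026 with 1 left out. The cause of these moves was not tested. Domain lists without replicates or depth set no error on any share, and genes near 1 CPM rest on few counts.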
